A study of Homo sapiens with 6 samples.

Results

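The neural adhesion genes described here are 9 members of the NCAM, L1, contactin and contactin-associated families: NCAM1, NCAM2, L1CAM, CHL1, NRCAM, NFASC, CNTN1, CNTNAP1 and CNTNAP2. Each matched a single row of the 56832 gene symbols in the count table by its symbol. Of the 9 members, 8 had a count in some library and passed the filter on low counts, among 18061 genes that passed it. NCAM2 was picked for its near loss in the knockout, NCAM1 for its rise and CNTNAP2 for its fall, so their values in this comparison are described without a test. The other 6 were added as family relatives.

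The study sequenced poly(A)-selected RNA of HEK293T, an adherent line grown from human embryonic kidney that expresses the SV40 large T antigen. There were 3 libraries of SMARCA3 KO 293T cells and 3 of WT 293T cells, kept in the same DMEM medium with serum. SMARCA3 is the protein product of HLTF, a chromatin translocase and ubiquitin ligase. The labels give neither the way the gene was knocked out nor whether the knockout cells are 1 clone, and they do not say that replicates were separate cultures, so a p-value here covers only the spread among the libraries, which may be technical.

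The 4 families share immunoglobulin-like, fibronectin-like or laminin-like modules outside the cell and are best known from neurons and glia. NCAM proteins bind copies of themselves across cell contacts, and NCAM1 carries polysialic acid, a long sugar chain that loosens adhesion. L1 family proteins anchor to the spectrin skeleton through ankyrins. Contactins are held in the membrane by a lipid anchor and pair side by side with contactin-associated proteins: CNTN1 with CNTNAP1 at the junctions that flank nodes of Ranvier, where glial neurofascin (NFASC) is their counterpart, and CNTN2 with CNTNAP2 beside them, where potassium channels gather.

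Promoter sequences from RefSeq (GRCh38.p14) were at hand for 8 of the 9 members, as 15 windows of the 250 bases before a transcript start. The 3 shown are those whose start lay within 100 bases of a GENCODE transcript start, was not the start of a later exon and shared at most 30 bases with annotated exons. They belong to NRCAM and CNTNAP1, which rose in the knockout, and to NFASC, which was not called, and are printed so that their base makeup can be read beside those results. Capitals mark GC boxes (GGGCGG or its reverse complement CCGCCC), the sequence bound by SP and KLF factors.
NRCAM promoter window, chr7:108456437-108456686, minus strand: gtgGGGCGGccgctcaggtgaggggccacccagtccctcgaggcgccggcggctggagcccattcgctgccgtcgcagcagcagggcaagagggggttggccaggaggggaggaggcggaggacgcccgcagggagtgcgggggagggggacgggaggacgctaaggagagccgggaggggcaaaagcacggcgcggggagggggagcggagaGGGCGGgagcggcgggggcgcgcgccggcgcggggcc
CNTNAP1 promoter window, chr17:42682281-42682530, plus strand: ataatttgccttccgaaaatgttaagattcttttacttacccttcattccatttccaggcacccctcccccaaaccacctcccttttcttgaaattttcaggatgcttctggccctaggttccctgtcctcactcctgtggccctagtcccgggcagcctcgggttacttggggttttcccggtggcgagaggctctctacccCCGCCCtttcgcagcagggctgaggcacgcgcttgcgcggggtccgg
NFASC promoter window, chr1:204828402-204828651, plus strand: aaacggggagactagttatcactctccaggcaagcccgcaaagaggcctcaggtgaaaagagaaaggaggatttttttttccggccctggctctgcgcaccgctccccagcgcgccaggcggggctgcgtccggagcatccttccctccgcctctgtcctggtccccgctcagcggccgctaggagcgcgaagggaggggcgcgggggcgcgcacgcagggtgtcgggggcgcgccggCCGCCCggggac
The window of NRCAM held 29 CpG dinucleotides, that of CNTNAP1 12 and that of NFASC 27, against a median of 11 over all 35116 RefSeq windows of that length. NRCAM had 2 GC boxes and the other two 1 each, and 42.6% of all windows held at least 1 on either strand. The other motifs searched on both strands were TATAAA, in none of the 3 windows and in 10.7% of all, TAATTA, in none and in 4.35%, TGACGTCA, in none and in 1.65%, and the E-box CANNTG, with 1 match each for NRCAM and NFASC and in 61.8% of all. The window of NCAM2 lay 148847 bases past the start of the gene in GENCODE, with no GENCODE transcript start near it, and is not shown.

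Total counts ran from 33125811 to 36804337 in knockout libraries and from 38199454 to 41593655 in wild-type libraries. WT replicate 1 stood apart from the other WT libraries, with a chi-square per degree of freedom of 9.75 and 15.3 against them, where the other WT pair gave 4.28 and knockout pairs 3.60 to 5.71. HLTF, the targeted gene, measured 141, 140 and 149 CPM (counts per 1000000 TMM-scaled counts of tested genes) in knockout replicates 1 to 3, against 215, 191 and 195 CPM in WT replicates 1 to 3, a log2 ratio (knockout over WT) of -0.48 (SE 0.05, edgeR adjusted p = 4.65e-05). The exact permutation test gave p = 0.1 two-sided, the smallest that 3 against 3 libraries allow, and the median log2 fold change of the 40 expressed genes nearest HLTF was -0.50. With that median removed HLTF stood at 0.0173 (edgeR adjusted p = 0.839). That median pools unlike sides. Neighbours on the left ran from -0.52 (GYG1) to 0.37 (SPSB4), and those on the right from -1.47 (WWTR1) to -0.30 (TSC22D2). The value of 0.0173 therefore depends on the pooling. HLTF mRNA remained in all knockout libraries. Whether the counted exons hold the edited site is not given in the sources used here. Of 8 kidney epithelial and nephric markers 7 had counts, KRT19 was at 0 in all libraries, and PAX8 had 5 counts over all 6. Their summed level was 80.8 to 87.6 CPM in the knockout and 103 to 107 CPM in WT. Of 6 tested, 1 was called higher and 3 lower, 66.7% called against 31.8% over all tested genes. Neuronal markers, all 13 with counts, summed to 154 to 157 CPM in the knockout and 175 to 182 CPM in WT. Of 10 tested, 2 were called higher, 3 lower and 5 not called (50% called, 31.8% over all tested genes). The highest neuronal marker in both groups was NEFL, at 67.7 ± 1.23 CPM in the knockout and 73.4 ± 0.469 CPM in WT. INA came second, at 56.4 ± 1.14 CPM in the knockout and 53.6 ± 1.37 CPM in WT, and neither was called. The largest fall among the tested neuronal markers was that of the neurofilament gene NEFM, at 0.0501 ± 0.0633 CPM in the knockout and 34.8 ± 2.85 CPM in WT. The largest rise was that of STMN2, a tubulin-binding protein of growing axons, at 17.6 ± 1.25 CPM in the knockout and 0.805 ± 0.166 CPM in WT. These are SD with n = 3 each, and the genes were named after their values were seen. Glial markers, all 9 with counts, summed to 9.26 to 10.3 CPM in the knockout and 14.1 to 14.9 CPM in WT. Of 6 tested, 4 were called lower and 2 not called, 66.7% called lower against 17.7% over all tested genes. Fibroblast markers (6 of 7 with counts, DCN at 0) summed to 6.87 to 7.92 CPM against 7.37 to 9.24 CPM in WT, leukocyte markers (6 of 7, CD3E at 0) to 1.03 to 1.28 CPM against 0.795 to 0.918 CPM, and endothelial markers (4 of 4) to 0.190 to 0.394 CPM against 0.154 to 0.289 CPM. The part of these markers in the results below was not tested, and in bulk RNA fewer cells of a kind and less RNA per cell cannot be told apart.

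NCAM2, an adhesion receptor known from olfactory axons, was close to absent in the knockout. It had 1, 2 and 1 counts in knockout replicates 1 to 3, against 195, 166 and 158 counts in WT replicates 1 to 3. In CPM these were 0.0291, 0.0543 and 0.0303 in the knockout, against 4.70, 4.26 and 4.14 in WT. The groups were far apart, which follows largely from NCAM2 being picked for its near loss. Each knockout value lay under the level that 3 counts represent in its library, 0.0815 to 0.0906 CPM. The 4 counts of the knockout set against the 519 of WT give a level 114 times as high in WT as in the knockout, with an exact 95% counting interval of 44.2 to 419.8 that covers counting error only. The fitted log2 fold change was -6.71, a value that depends on the prior count of the fit, and 7 of the 18061 tested genes had one at least as low, NCAM2 included. NCAM2 lies on chromosome 21 between 20998315 and 21543329 on the plus strand (hg38, GENCODE), and no exon of another annotated gene overlaps its exons.

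NCAM1, its paralogue and the main carrier of polysialic acid, moved the other way. It measured 36.3, 37.1 and 37.2 CPM in knockout replicates 1 to 3, against 26.6, 24.9 and 25.8 CPM in WT replicates 1 to 3. All knockout values were above all WT values, which follows largely from NCAM1 being picked for its rise. The means of 36.9 ± 0.470 CPM in the knockout and 25.8 ± 0.832 CPM in WT (SD, n = 3 each) gave a log2 ratio of 0.52. Per kilobase of exon, NCAM2 made up 0.156 ± 0.0574% of the summed level of the NCAM pair in the knockout and 20.5 ± 0.784% in WT (SD, n = 3 each). NCAM1 spans 112961247 to 113278436 on the plus strand of chromosome 11, and 4.33% of its exon bases are shared with the antisense gene NCAM1-AS1. Whether the counting used strand is not given in the sources used here.

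**Figure D1:**
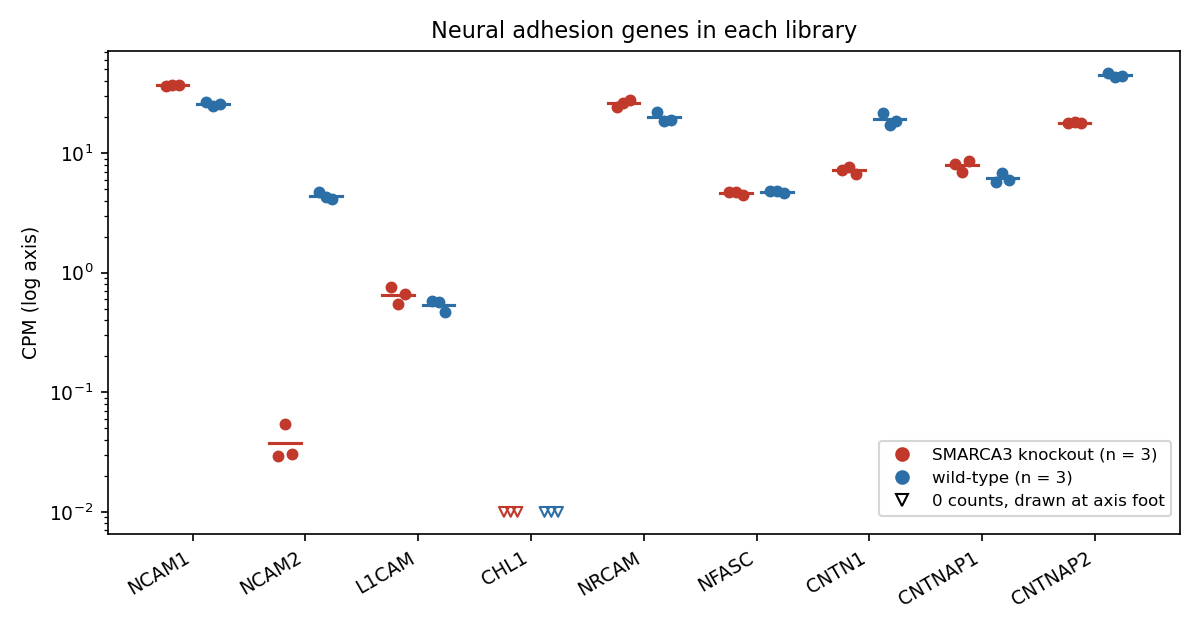
CPM of the 9 members in each library on a log axis, knockout libraries in red at left of each gene and WT libraries in blue at right, with the mean as a bar. NCAM2 lay between 0.0291 and 0.0543 CPM in the knockout and between 4.14 and 4.70 CPM in WT, and CHL1 had 0 counts in all 6 libraries.

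CNTNAP2 (Caspr2), which gathers potassium channels along axons, was lower in the knockout. It measured 17.7, 18.3 and 17.9 CPM in knockout replicates 1 to 3, against 46.9, 43.3 and 44.3 CPM in WT replicates 1 to 3. The groups did not overlap, which follows largely from CNTNAP2 being picked for its fall. The knockout mean of 17.96 ± 0.309 CPM was 40.04% of the WT mean of 44.9 ± 1.88 CPM (SD, n = 3 each), a log2 ratio of -1.32. CNTNAP2 spans 146116002 to 148420998 on the plus strand of chromosome 7, and 2.48% of its exon bases are shared with the pseudogene DUTP3 on the same strand. The partner with which CNTNAP2 pairs on axons, CNTN2, had 40 counts over all 6 libraries and was not tested.

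CNTN1, the lipid-anchored contactin that pairs with CNTNAP1, was also lower. It measured 7.19, 7.66 and 6.70 CPM in knockout replicates 1 to 3, against 21.6, 17.2 and 18.6 CPM in WT replicates 1 to 3. The highest knockout library was under the lowest WT library. The means were 7.18 ± 0.482 CPM in the knockout and 19.1 ± 2.27 CPM in WT (SD, n = 3 each), a log2 ratio of -1.41 (SE 0.10, edgeR adjusted p = 1.98e-06). Without WT replicate 1, which had the highest value, the log2 fold change was -1.30 (edgeR adjusted p = 1.51e-08). CNTN1 occupies 40692442 to 41072418 on the plus strand of chromosome 12.

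CNTNAP1 (Caspr), the membrane partner of CNTN1, did not follow it. It measured 8.04, 7.01 and 8.60 CPM in knockout replicates 1 to 3, against 5.69, 6.75 and 6.01 CPM in WT replicates 1 to 3, so the lowest knockout and the highest WT library lay close together. The means of 7.88 ± 0.810 CPM in the knockout and 6.15 ± 0.545 CPM in WT (SD, n = 3 each) gave a log2 ratio of 0.36 (SE 0.10, edgeR adjusted p = 0.0236). This call was lost without knockout replicate 1 (adjusted p = 0.0555), without knockout replicate 3 (adjusted p = 0.102) and with the replicate number as a block (adjusted p = 0.0711). The gene spans 42682613 to 42699814 on the plus strand of chromosome 17. Of the 40 expressed genes nearest to it 31 were called higher, with a median log2 fold change of 0.30, and with that median removed CNTNAP1 stood at 0.0552 (adjusted p = 0.739). CCR10 on the other strand shares 6.30% of its exon bases and had 23, 18 and 15 counts in the knockout and 12, 13 and 11 counts in WT.

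NRCAM, an L1 family protein that binds ankyrins and helps assemble nodes of Ranvier, rose. It measured 24.2, 26.3 and 27.7 CPM in knockout replicates 1 to 3, against 22.2, 18.7 and 19.0 CPM in WT replicates 1 to 3. The groups did not overlap, with the lowest knockout value next to the highest WT value. The means were 26.1 ± 1.73 CPM in the knockout and 19.98 ± 1.95 CPM in WT (SD, n = 3 each), a log2 ratio of 0.38 (SE 0.08, edgeR adjusted p = 0.00455), and 0.48 without WT replicate 1 (adjusted p = 7.65e-05). NRCAM occupies 108147623 to 108456717 on the minus strand of chromosome 7.

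NFASC, the neurofascin gene, was not called. It measured 4.75, 4.70 and 4.42 CPM in knockout replicates 1 to 3, against 4.82, 4.80 and 4.59 CPM in WT replicates 1 to 3, and the groups overlapped. The log2 fold change was -0.03, with a 95% interval of -0.24 to 0.17 from the edgeR fit (adjusted p = 0.814). L1CAM, the founding member of its family, was at the edge of detection, with 26, 20 and 22 counts in knockout replicates 1 to 3 and 24, 22 and 18 counts in WT replicates 1 to 3. Its log2 fold change of 0.28 had a 95% interval of -0.23 to 0.78 (edgeR adjusted p = 0.418). L1CAM spans 153861514 to 153886174 on chromosome X and shares 6.04% of its exon bases with U52112.1 on the same strand, and NFASC spans 204828651 to 205022822 on chromosome 1. CHL1, the close homologue of L1CAM on chromosome 3 between 196596 and 409417, had 0 counts in every library. Whether the authors' counting could assign reads to it is not known, and no upper limit is set on its level.

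Of the 5 tested members that were not picked for this comparison, NRCAM and CNTNAP1 were called higher, CNTN1 lower and NFASC and L1CAM were not called. Over all 18061 tested genes 31.8% were called, 14% higher and 17.7% lower, so 3 calls of 5 is a count too small to set apart from that background. The CPM ranges of knockout and WT did not overlap in 6 of the 8 tested members, 3 of them picked for their change, and in 45.6% of all tested genes. Without WT replicate 1 the log2 ratios were 0.55 for NCAM1, -6.64 for NCAM2, -1.27 for CNTNAP2 and 0.31 for CNTNAP1 (edgeR adjusted p = 0.0343). The coefficient of variation between libraries of a group ran from 1.27% for NCAM1 to 16.4% for L1CAM in the knockout, NCAM2 with its 4 counts aside at 37.5%, and from 2.69% for NFASC to 11.9% for CNTN1 in WT.

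The order of the members by level was taken from CPM per kilobase of exon union. In the knockout NRCAM came first at 3.18 ± 0.211, followed by NCAM1 at 2.89 ± 0.0369, CNTNAP1 at 1.30 ± 0.134, CNTNAP2 at 1.08 ± 0.0186, CNTN1 at 0.959 ± 0.0643, NFASC at 0.217 ± 0.00821, L1CAM at 0.0902 ± 0.0148 and NCAM2 at 0.00452 ± 0.00170 CPM per kilobase (SD, n = 3), and no neighbours in this order overlapped. In WT CNTNAP2 came first at 2.69 ± 0.113, followed by CNTN1 at 2.55 ± 0.303 and NRCAM at 2.44 ± 0.238 CPM per kilobase (SD, n = 3), whose ranges overlapped each with the next. NCAM1 at 2.02 ± 0.0653, CNTNAP1 at 1.02 ± 0.0901, NCAM2 at 0.521 ± 0.0350, NFASC at 0.223 ± 0.00599 and L1CAM at 0.0740 ± 0.00795 CPM per kilobase followed in WT without overlap. These are low to middling levels for this line. CNTNAP2 stood at percentile 26.0 in the knockout and 39.0 in WT among 14474 tested genes with a length, and NRCAM at 42.6 in the knockout and 37.2 in WT. Summed over the 9 members, the level was 9.73 ± 0.249 CPM per kilobase in the knockout and 11.5 ± 0.673 in WT (SD, n = 3 each). CNTN1 and CNTNAP2 made up 9.87 ± 0.822% and 11.1 ± 0.305% of that sum in the knockout, against 22.1 ± 1.36% and 23.3 ± 0.400% in WT. With the longest annotated transcript as the length, NCAM1 moved up to second place in WT and to first in the knockout.

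**Figure D2:**
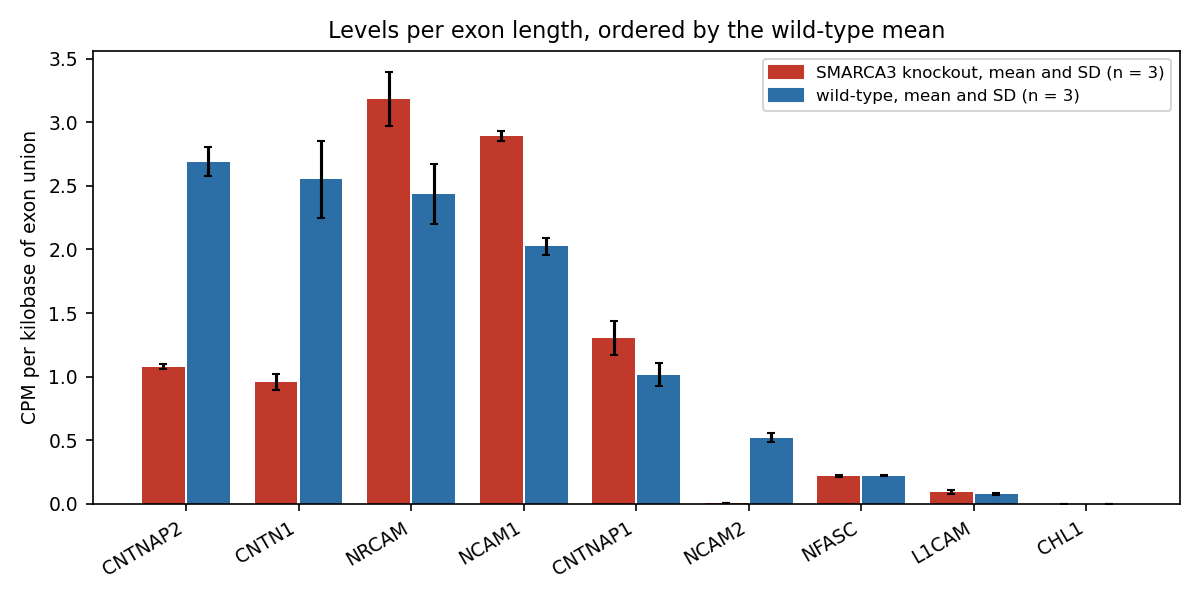
CPM per kilobase of exon union for the 9 members, ordered by the WT mean, with knockout bars in red left of WT bars in blue and error bars of 1 SD over 3 libraries. NRCAM and NCAM1 lead in the knockout at 3.18 and 2.89, while CNTNAP2 and CNTN1 lead in WT at 2.69 and 2.55.

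The chromosomal surroundings of the members were compared with the members themselves, using the nearest genes whose mean reached 2 CPM, up to 20 to the left and 20 to the right. Around NCAM2, in a gene-poor part of chromosome 21, the median of the 31 such genes was -0.05 on the log2 scale and none was as low as NCAM2, the lowest being at -2.15. The nearest on either side were PPIAL3, at -0.02 (edgeR adjusted p = 0.888), and the mitochondrial ribosomal protein gene MRPL39, which fell by 0.24 on the log2 scale (adjusted p = 0.00267). PPIAL3 ends at 18858276 and MRPL39 starts at 25585656, both far from NCAM2 at 20998315 to 21543329. The 31 genes reach from 6444869 to 32393960. All 40 neighbours of NCAM1 lay below it, with a median of 0.01. The nearest of them on either side were PTS, an enzyme of tetrahydrobiopterin synthesis, at -0.18 (edgeR adjusted p = 0.0472, lost in 12 of 16 alternatives, among them each of the 6 libraries left out in turn) and TTC12 at 0.07 (adjusted p = 0.399). All 40 neighbours of CNTNAP2 lay above it, with a median of 0.07. The cullin gene CUL1, the nearest such gene on its right, was at -0.10 (edgeR adjusted p = 0.0807, and -0.19 with adjusted p = 0.00461 with the neighbour median removed). NCAM2, NCAM1 and CNTNAP2 were picked for their change, so their place beyond their neighbours follows largely from that choice. NRCAM, which was not picked, stood above all 40 of its neighbours, whose median was -0.07. CNTN1 had a single neighbour with a lower value among 40 and a median of -0.11 around it. The nearest such gene on its left, the kinase gene LRRK2, ends at 40369285, where CNTN1 starts at 40692442. LRRK2 fell by 1.37 (edgeR adjusted p = 0.000515). LRRK2 was named after its value was seen.

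**Figure D3:**
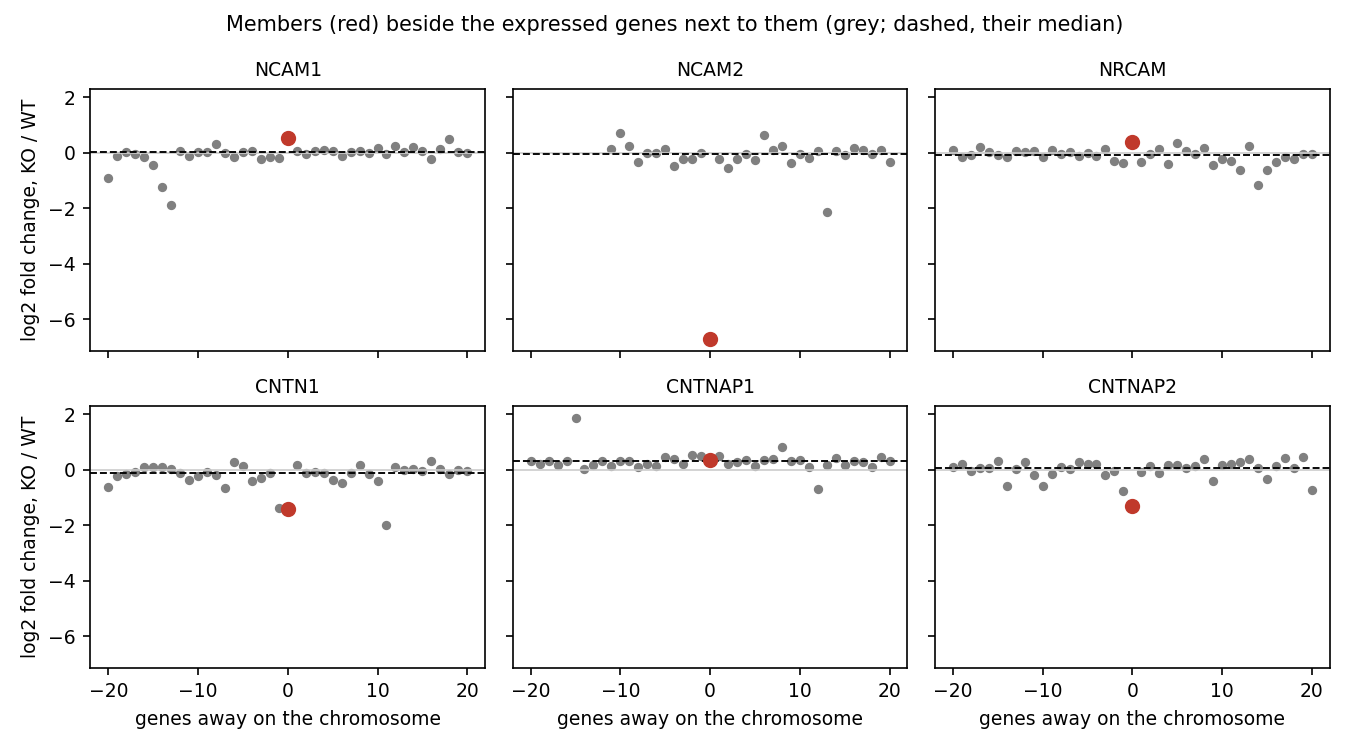
Log2 fold change (knockout over WT) of 6 members, in red at 0, and of up to 20 expressed genes on each side of them, in grey by their place in gene order, with the neighbours' median as a dashed line. NCAM2, picked for its near loss, lies at -6.71, far below its neighbours, while CNTNAP1 at 0.36 lies near its neighbours' median of 0.30.

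The genes whose pattern over the 6 libraries came nearest to each picked member were found by the root mean square difference of log2 CPM, centred on the WT mean, among 14466 other tested genes with a position. Those nearest NCAM1 were AMOT (difference 0.0171), LARGE (0.0215) and ITPR1 (0.0237). Their log2 ratios were 0.53, 0.53 and 0.54, beside 0.52 for NCAM1. Over 2 groups this measure mostly finds genes with a change of like size, and shared regulation was not tested. Nearest NCAM2 were COL2A1 (0.287), DTX3 (0.288) and OXCT1 (0.306), of which DTX3 alone stayed among the nearest with a prior count of 0.5 in place of 2, beside MAGEA6 and DTX3L. Nearest CNTNAP2 were KCTD12 (0.0204), ME1 (0.0405) and ATL3 (0.0478). DTX3 had 3 counts in the knockout and 503 in WT, a ratio of WT to knockout of 147 with a 95% counting interval of 50.1 to 716.

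Of the 9 remaining contactins and contactin-associated genes, 7 did not pass the filter on low counts, with 40 counts for CNTN2, 36 for CNTN3, 8 for CNTN4, 5 for CNTN5, 1 for CNTNAP5 and 0 for CNTN6 and CNTNAP4 over all 6 libraries. CNTNAP3B fell, to 1.03 ± 0.149 CPM in the knockout, against 1.66 ± 0.0629 CPM in WT (SD, n = 3 each), a log2 ratio of -0.69 (SE 0.16, edgeR adjusted p = 0.00758, and 0.0628 with DESeq2). It is a near-identical copy of CNTNAP3, which averaged 3.34 ± 0.384 CPM in the knockout and 4.13 ± 0.443 CPM in WT (SD, n = 3 each), a log2 ratio of -0.31 (edgeR adjusted p = 0.0908), and reads may be split between the copies.

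Genes listed as membrane and matrix partners of these adhesion proteins changed in either direction. Of 20 tested, 6 rose, 7 fell and 7 were not called, 65% called against 31.8% over all genes, with a median log2 fold change of -0.06 against 0.0031 over all genes. PTPRZ1, a receptor phosphatase whose outer domain binds CNTN1, fell to 0.259 ± 0.0507 CPM in the knockout, against 2.70 ± 0.296 CPM in WT (SD, n = 3 each), a log2 ratio of -3.36 (SE 0.21, edgeR adjusted p = 8.30e-07). PTPRB, in the list as an endothelial relative of it, fell by 1.85 on the log2 scale (edgeR adjusted p = 0.000389). Tenascin-C (TNC), a matrix protein that contactins bind, rose to 14.5 ± 0.936 CPM in the knockout, against 3.64 ± 0.132 CPM in WT (SD, n = 3 each), a log2 ratio of 2.00 (SE 0.09, adjusted p = 5.93e-08). Neurocan (NCAN), a proteoglycan that binds NCAM1 and L1CAM, rose by 1.30 on the log2 scale (SE 0.23, edgeR adjusted p = 0.00155). GDNF and its receptor GFRA1, which can signal through NCAM1, were both called lower, at -0.73 and -0.44 on the log2 scale (edgeR adjusted p = 0.0287 and 0.0132). The call of GDNF was lost in 8 of 15 alternatives, among them the fits without knockout replicate 2 or 3 or WT replicate 1 or 2 (adjusted p = 0.0613 to 0.122), and that of GFRA1 without knockout replicate 1 (adjusted p = 0.0594). The pair was named after its values were seen. FGFR1 and EGFR, receptor genes of the same list, were called higher, at 0.19 and 0.30 on the log2 scale (edgeR adjusted p = 0.00996 and 0.00562). They too were named after their values were seen, and their values under the alternatives are not given here.

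Among enzymes that modify or cleave the members, 8 of 14 tested fell, 1 rose and 5 were not called. That is 64.3% called, against 31.8% over all genes, with a median log2 fold change of -0.16. Without knockout replicate 1, knockout replicate 3 or WT replicate 2, 5 were called in place of 9. ST8SIA4, a polysialyltransferase that builds the chains on NCAM1, fell to 0.651 ± 0.106 CPM in the knockout, against 3.29 ± 0.224 CPM in WT (SD, n = 3 each), a log2 ratio of -2.33 (SE 0.16, edgeR adjusted p = 1.71e-06). ST8SIA2, the other polysialyltransferase of NCAM1 and named after its value was seen, averaged 0.202 ± 0.0275 CPM in the knockout and 0.387 ± 0.0400 CPM in WT (SD, n = 3 each). Its log2 fold change was -0.93 (SE 0.30, edgeR adjusted p = 0.0362), a call lost in 10 of 15 alternatives, among them each of the 6 libraries left out in turn (adjusted p = 0.0519 to 0.115). B3GAT1, which starts the HNK-1 sugar epitope carried by several of these proteins, rose to 6.40 ± 0.530 CPM in the knockout, against 2.73 ± 0.303 CPM in WT (SD, n = 3 each), a log2 ratio of 1.23 (SE 0.12, edgeR adjusted p = 1.98e-05). The fucosyltransferase gene FUT9 had 1 count in the knockout and 101 in WT, a ratio of WT to knockout of 88.7 with a 95% counting interval of 15.6 to 3538 (edgeR adjusted p = 0.000103).

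Among cytoplasmic adaptors and kinases 4 of 24 tested rose, 9 fell and 11 were not called. That is 54.2% called, against 31.8% over all genes, with a median log2 fold change of -0.12. Without knockout replicate 1 or 3, 8 were called in place of 13. Ankyrin-G (ANK3), which ties L1 family proteins to spectrin, fell to 18.1 ± 0.641 CPM in the knockout, against 30.7 ± 1.40 CPM in WT (SD, n = 3 each), a log2 ratio of -0.76 (SE 0.06, edgeR adjusted p = 6.72e-06). Moesin (MSN), a membrane-to-actin linker, fell by 0.52 on the log2 scale (SE 0.04, edgeR adjusted p = 2.41e-06). Its relative ezrin (EZR) was higher by 0.25 (edgeR adjusted p = 0.00187) beside a neighbour median of 0.29 on chromosome 6, and was at -0.0369 with that median removed (adjusted p = 0.600). EPB41L2, of the band 4.1 family, other members of which bind contactin-associated proteins, rose by 0.26 (edgeR adjusted p = 0.00216).

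Of 12 tested transcription regulators 4 rose, 2 fell and 6 were not called. That is 50% called, against 31.8% over all genes, with a median log2 fold change of 0.08. SNAI2, a zinc finger repressor of epithelial genes, rose to 59.99 ± 0.925 CPM in the knockout, against 24.7 ± 2.54 CPM in WT (SD, n = 3 each), a log2 ratio of 1.28 (SE 0.07, edgeR adjusted p = 3.55e-07). PAX2, a paired-box factor of the developing kidney, rose by 1.25 (SE 0.10, edgeR adjusted p = 7.24e-06) and WT1, another kidney factor, fell by 0.96 (SE 0.08, adjusted p = 1.11e-05). FOXP2, a forkhead repressor that binds CNTNAP2, fell by 0.29 (SE 0.07, edgeR adjusted p = 0.0122). Its call was lost in 3 of 16 alternatives: without knockout replicate 1 (adjusted p = 0.0732), under the replicate block (0.0536) and at a threshold of 0.01. REST, the repressor of many neuronal genes and named after its value was seen, stood at 0.05 (SE 0.05, edgeR adjusted p = 0.519), and at 0.19 (adjusted p = 0.0192) with the median of its neighbours removed.

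Of 35 other immunoglobulin superfamily adhesion genes 24 were tested, of which 7 rose, 5 fell and 12 were not called. That is 50% called, against 31.8% over all genes, with a median log2 fold change of -0.0021. MDGA2, a synaptic adhesion regulator, fell to 0.195 ± 0.0746 CPM in the knockout, against 4.41 ± 0.396 CPM in WT (SD, n = 3 each), a log2 ratio of -4.50 (SE 0.22, edgeR adjusted p = 1.32e-07). ALCAM, a homophilic receptor, fell by 0.77 on the log2 scale (SE 0.06, edgeR adjusted p = 7.87e-06). The hedgehog co-receptor BOC rose by 0.60 (SE 0.07, edgeR adjusted p = 5.30e-05) and IGSF9 by 0.92 (SE 0.17, adjusted p = 0.00195).

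**Figure D4:**
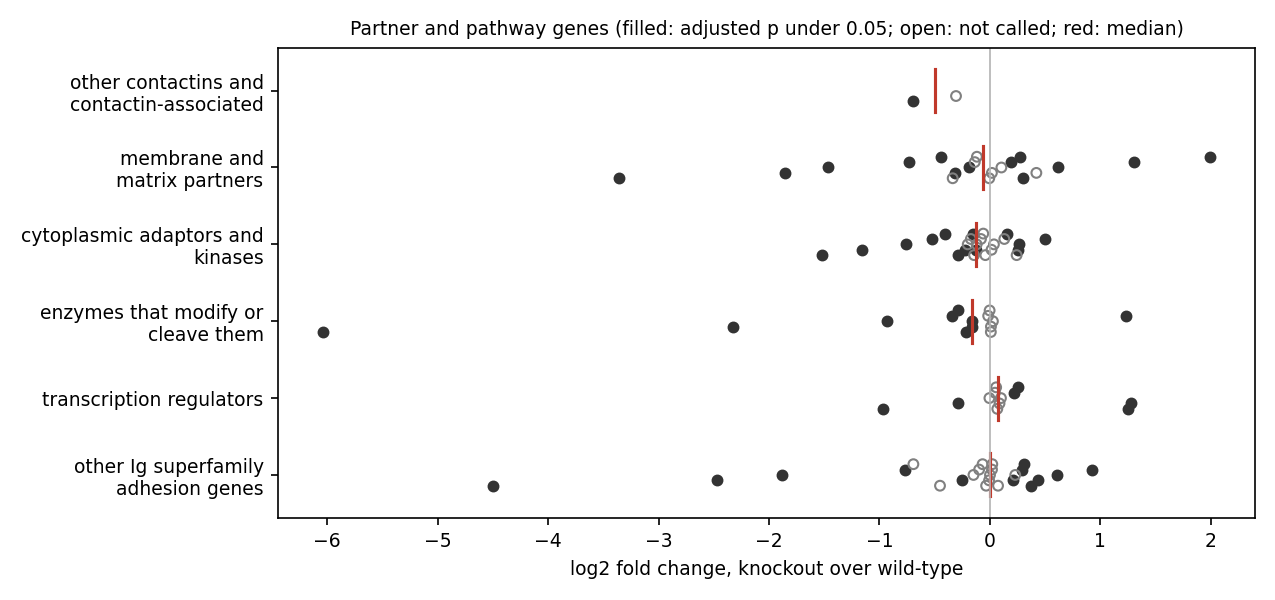
Log2 fold change (knockout over WT) of the tested genes in 6 lists of relatives, partners and regulators, filled where the edgeR adjusted p was under 0.05, open where it was not, with the list's median as a red bar. The list medians lie between -0.50 for the 2 tested contactin relatives and 0.08 for the transcription regulators, and most lists hold changes in either direction.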

How the data were processed

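Poly(A)-selected RNA of 3 SMARCA3 knockout and 3 wild-type HEK293T libraries was sequenced in read pairs from a stranded preparation, as the labels' protocols state. The authors deposited raw counts per gene symbol, 1 column per library. Trim Galore, STAR 2.4, Picard, HTSeq 0.9.1, DESeq2 and hg38 are named without role or order, per the submitters' processing notes; neither annotation nor strand setting is given in the sources used here. Columns were assigned by the column names in the labels, and every pair of replicates within a group differed beyond sampling noise.

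Testing of the counts used edgeR 4.0.16 under R 4.3.3: filterByExpr with the group, TMM, the quasi-likelihood F test with robust = FALSE and no covariate, and Benjamini-Hochberg adjustment over all 18061 tested genes with a threshold of 0.05. The SE is the log2 fold change divided by the square root of F, and 95% intervals use the fit's degrees of freedom. CPM are per 1000000 TMM-scaled counts of tested genes; floors of 3 counts use total counts and cover counting error only.

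Positions, exon unions and transcript lengths came from GENCODE 29 on the same build, matched for 30480 of 56832 symbols, 918 of them by a former symbol; promoters came from RefSeq. Members, lists and tests were chosen with earlier results of these data known. Named from each list are up to 2 called genes per direction with the smallest p, besides the members, HLTF, the 3 nearest patterns and the adjacent genes of NCAM1, NCAM2 and CNTNAP2; others are said to be chosen after their values were seen. A gene that this rule names is not reported here. Alternatives were RLE, library size only, no filter, at least 1 CPM in 3 libraries, DESeq2 1.42.0, limma-voom (limma 3.58.1), robust dispersion, a replicate block, each library left out, a threshold of 0.01, the neighbour median removed, the longest transcript as length and a prior count of 0.5 in place of 2 for likeness.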

Additional observations from a re-analysis of the deposited data

How the results depend on the processing

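Over the alternatives run, the direction of each tested member was kept, and the call of CNTN1 and NRCAM held in 16 of 16 (adjusted p up to 0.000153 and 0.0274), while L1CAM (15 alternatives) and NFASC (16) were called in none. CNTNAP1 lost its call at a threshold of 0.01 (log2 fold change 0.36), under the replicate block (0.36) and with the neighbour median removed (0.0552), and ran from 0.29 to 0.44 as single libraries were left out; the cause was not tested. NCAM2 was at -6.42 with limma-voom and ran from -7.05 to -6.55 with single libraries left out, and CNTNAP2 was at -1.39 with the neighbour median removed. That removal also turned HLTF to 0.0173 and EZR to -0.0369. A threshold of 0.01 left 3477 calls, 1421 higher and 2056 lower, against 5737, 2532 and 3205 at 0.05. The replicate block gave 4232 calls over all genes; same-numbered libraries did not deviate together (r of -0.23, -0.01 and -0.05), so the numbers were not taken as pairs. Called adaptors and kinases numbered 13, and 8 under the block or without knockout replicate 1 or 3; called modifying enzymes numbered 9, and 5 without knockout replicate 1, knockout replicate 3 or WT replicate 2. By either length, 6 neighbours in the WT order did not overlap. Of the 9 genes nearest NCAM1, NCAM2 and CNTNAP2, 7 were also nearest with a prior count of 0.5, and the other two, COL2A1 and OXCT1, had been near NCAM2. Depth limits L1CAM and NCAM2 in the knockout.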
